A study of Mus musculus with 6 samples.

Results

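The solute carrier (SLC) genes are the largest group of membrane transporter genes in mammals, and 258 of them were described here among the 12393 genes of the array. A gene was included when its symbol on the platform began with Slc and a digit, except for the glucose and lactate carriers Slc2a1, Slc2a3, Slc16a1 and Slc16a3. Each gene was represented by the brightest of its singly annotated probe sets (by mean log2 signal over the 6 arrays), and genes were grouped by SLC family number into 49 families. By name the set also held 3 genes that are not transporters, Slc9a3r1 and Slc9a3r2, which encode scaffold proteins bound to sodium-proton exchangers, and Slc4a1ap, which encodes an adaptor protein.

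RNA came from Ba/F3 cells, a mouse pro-B line that needs interleukin 3 (IL3) or an active kinase in its place. The 6 arrays covered cells with ETV6-PDGFRB, cells with FIP1L1-PDGFRA and cells with an empty pMSCV vector, and each line was either left untreated or given 100 nM imatinib (Glivec) for 4 h. Cells with a fusion gene had been selected to grow without IL3, vector cells were kept in IL3, and all were in medium with 10% serum. Imatinib inhibits the PDGF receptor kinases, so the design compares fusion cells with and without an active fusion kinase and uses the IL3 pair as the control for the drug itself. Each group was 1 array, and whether a line was 1 clone was not stated in the labels.

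Solute carriers move amino acids, sugars, ions, nucleotides, vitamins and metals across the plasma membrane and the membranes of organelles. Most are driven by ion gradients or by exchange of 1 solute for another, unlike the ABC transporters and ion pumps, which use ATP. In growing blood cells, growth factor signalling is known to raise the uptake of amino acids, glucose and phosphate, and mitochondrial carriers link the cytosol to respiration and heme synthesis.

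Signals were compared with a floor of 20.1, the median over arrays of each array's 50th percentile. Of the 258 solute carrier genes, 129 were above the floor on at least 1 array, 102 on all 6 and 129 on none. A signal below the floor is not a proof of absence. Csf2rb, a subunit of the IL3 receptor, was at 1193 to 1616, and Ptprc, Cd44 and Il3ra were also above the floor on every array. Kit, the remaining gene of this list of 5 hematopoietic markers, was below the floor on every array. Of 11 pro-B markers on the array, Cd79a, Cd79b and Btk were above the floor on all 6 arrays and Igll1 on the IL3 arrays only. Pax5, Ebf1, Rag1, Rag2, Vpreb1, Vpreb3 and Blnk were below it on every array. In a bulk RNA sample, fewer cells with a transcript and less of it per cell cannot be told apart.

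The share of genes above the floor differed between families. Mitochondrial carriers of family SLC25 (28 of 33), nucleotide sugar carriers of SLC35 (17 of 18), zinc importers of SLC39 (10 of 10) and zinc exporters of SLC30 (7 of 8) were mostly above it. Of the sodium-driven sugar and vitamin carriers of SLC5, 1 of 11 was above it, and of the organic ion carriers of SLC22, 3 of 18. The members with the highest signal on their own probe sets included 4 mitochondrial carriers. Slc25a5, an ADP/ATP carrier, was at 2549 to 3017, Slc25a3, the phosphate carrier, at 2381 to 2773, Slc25a39, linked to glutathione import, at 1382 to 1656, and Slc25a4, another ADP/ATP carrier, at 1033 to 1272.

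Imatinib lowered 18 and raised 11 of the 116 solute carrier genes that could be tested in the fusion lines, and 87 did not pass. These were 15.5% and 9.48% of the members, beside 12.4% of all 6808 tested genes that fell and 13.5% that rose. The members that fell included carriers of phosphate, zinc, neutral amino acids, folate and thiamine, and those that rose included carriers of heme, betaine, carnitine and bicarbonate. The test was limma on log2 signals with the line as a block, both fusion lines as repeats of a fusion line and the IL3 pair as spread, and an adjusted p under 0.05 over all 6808 genes is what rose and fell mean here. The spread behind its p-values is the difference between the responses of the 2 fusion lines and the difference inside the IL3 pair. Limma draws that spread toward the one over all tested genes (3.10 prior degrees of freedom). Repeat cultures play no part in it.

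Each of the 18 genes that fell was lower with imatinib in both lines, by log2 ratios of -1.30 to -0.38 in ETV6-PDGFRB cells and -1.17 to -0.31 in FIP1L1-PDGFRA cells, against -0.26 to 0.26 in the IL3 pair. Each of the 11 that rose was higher in both lines, by 0.30 to 1.05 and 0.39 to 1.16, against -0.23 to 0.14 in the IL3 pair. The agreement of both lines is part of what the test asks, so these ranges are a description. In each fusion line 118 members had a ratio, 112 of them in both lines. The members' median was -0.10 on the log2 scale in ETV6-PDGFRB cells and -0.02 in FIP1L1-PDGFRA cells, beside 0.03 and 0.05 over all genes. Scaling each array to its hybridization controls in place of the deposited scaling moved the all-gene medians to -0.14 and -0.23 and the members' medians to -0.27 and -0.28. Under that scaling 5 members rose and 41 fell (4.27% and 35.0%, beside 5.68% and 27.6% of all genes), and no called member changed sign. At an unadjusted p under 0.05 in limma with the deposited scaling, 16.4% of members were higher and 28.4% lower, beside 23.5% and 19.1% of all genes.

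**Figure D1:**
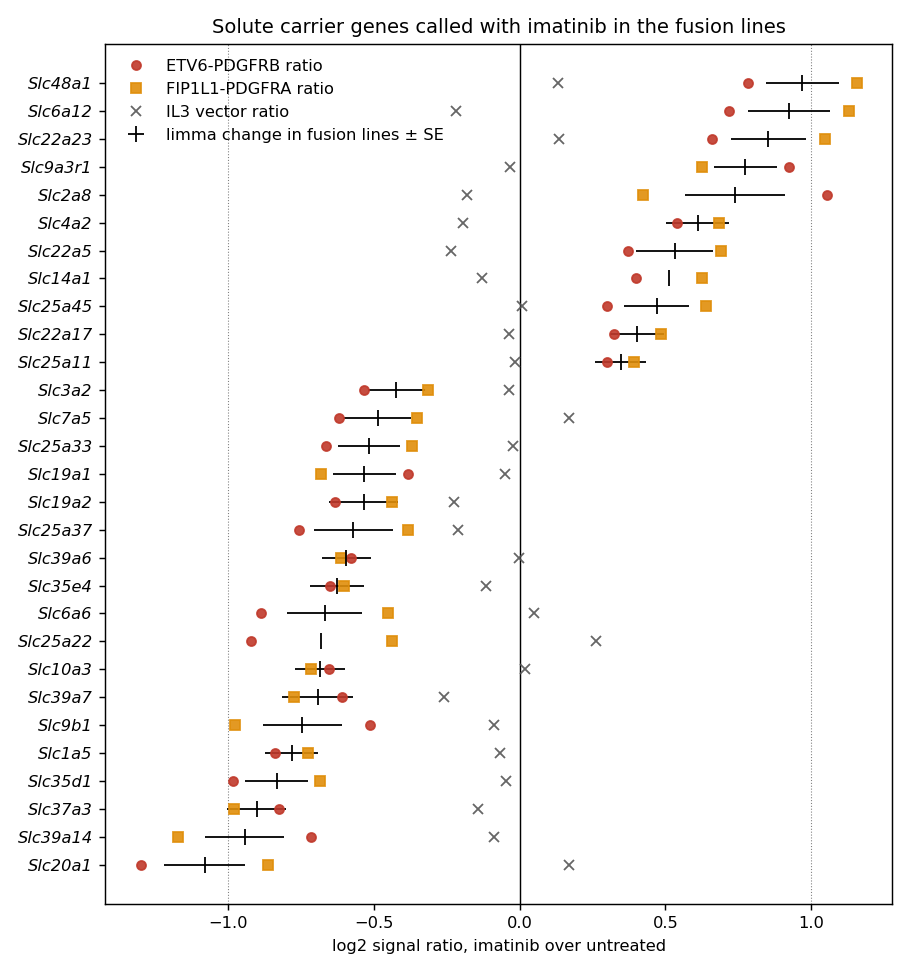
Log2 signal ratio (imatinib over untreated) on the horizontal axis for each of the 29 solute carrier genes past the threshold, with circles for ETV6-PDGFRB, squares for FIP1L1-PDGFRA, crosses for the IL3 vector pair and a vertical tick with bar for the limma change ± SE (no bar for genes with a fusion array under the floor). The circle and square of a gene lie on the same side of 0 in all 29, and the crosses lie between -0.26 and 0.26.

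Slc20a1, the phosphate carrier PiT-1, had the largest fall. In ETV6-PDGFRB cells its signal was 154 untreated and 62.7 with imatinib, in FIP1L1-PDGFRA cells 139 and 76.6, and in the IL3 pair 159 and 179. The signals of other genes follow in the same order. Both treated fusion arrays were below every other array. The limma change was -1.08 ± 0.14 (SE, adjusted p = 0.00935). The gene's other probe set was below the floor on all arrays, and with the mean of all its probe sets Slc20a1 no longer passed.

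Promoter windows from RefSeq (GRCm38.p6, 250 bases before to 50 after a gene's start) were matched for 11 of the genes that fell and 9 of those that rose, since these genes moved together. The E-box CACGTG, the letters bound by MYC and its relatives and the same on both strands, was in 3 of the 11 (27.3%) and 0 of the 9, beside 16.5% of 91 tested members matched and 8.09% of 27025 genes. The ATF4 composite letters (TGATGNAA or TTGCATCA) and the STAT letters (TTCNNNGAA), searched on both strands, were in 0 of both sets. Each was in 3.3% of the 91 tested members matched, and they were in 4.51% and 9.55% of all genes. With so few genes, 0 matches is near the share of the tested members. Slc1a5 and Slc7a5, which also fell, had no window matched. A match is not a bound site, and the array data do not bear on binding. The windows of Slc20a1 (chr2:129198523-129198822, plus strand), Slc25a33 (chr4:149774218-149774517, minus strand) and Slc37a3 (chr6:39377658-39377957, minus strand) are shown 5′ to 3′ because they are the 3 with the E-box, which is in capitals.
Slc20a1: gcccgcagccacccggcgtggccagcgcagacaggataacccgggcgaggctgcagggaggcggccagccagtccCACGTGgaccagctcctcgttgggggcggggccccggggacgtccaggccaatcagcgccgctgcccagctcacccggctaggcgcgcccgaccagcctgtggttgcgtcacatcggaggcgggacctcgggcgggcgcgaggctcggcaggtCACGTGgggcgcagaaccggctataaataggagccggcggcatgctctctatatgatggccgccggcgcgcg
Slc25a33: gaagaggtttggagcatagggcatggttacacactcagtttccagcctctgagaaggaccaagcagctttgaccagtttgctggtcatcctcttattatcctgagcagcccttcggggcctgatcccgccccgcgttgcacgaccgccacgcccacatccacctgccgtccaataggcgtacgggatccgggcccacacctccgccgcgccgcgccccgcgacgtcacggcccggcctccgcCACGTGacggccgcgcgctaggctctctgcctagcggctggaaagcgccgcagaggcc
Slc37a3: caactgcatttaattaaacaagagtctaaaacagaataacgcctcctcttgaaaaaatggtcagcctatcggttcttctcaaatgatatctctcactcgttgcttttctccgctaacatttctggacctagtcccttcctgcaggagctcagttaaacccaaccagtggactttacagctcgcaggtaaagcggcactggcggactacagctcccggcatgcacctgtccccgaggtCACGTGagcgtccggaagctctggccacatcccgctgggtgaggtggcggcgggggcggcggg
The Slc20a1 window holds 2 E-boxes and the others 1 each.

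Among amino acid carriers, 43 were on the array and 16 were tested. Of these 4 fell, 1 rose and 11 were not called, beside 12.4% of all genes that fell and 13.5% that rose. Their median log2 ratios in the ETV6-PDGFRB and FIP1L1-PDGFRA lines, over 15 and 16 genes, were -0.22 and -0.16. The first became 0.01 with a floor at the 40th percentile. Slc1a5 (ASCT2), an importer of glutamine and other neutral amino acids, went from 64.3 to 36.0 and from 89.0 to 53.8, with 91.0 and 86.9 in the IL3 pair. The treated fusion arrays were the lowest of the 6, and the change was -0.78 ± 0.09 (SE, limma adjusted p = 0.00781). Slc6a6, the taurine carrier, went from 108 to 58.4 and from 120 to 87.8, with 115 and 119 in the IL3 pair (-0.67 ± 0.13 SE, limma adjusted p = 0.0229). Its untreated fusion signals were close to those of the IL3 pair and both treated ones were below, and the call was lost with the 4 fusion arrays alone.

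The chains of the large neutral amino acid exchanger fell together by less. Slc7a5 (LAT1), the transporting light chain, went from 730 to 475 and from 721 to 565, with 625 and 704 in the IL3 pair (-0.49 ± 0.12 SE, limma adjusted p = 0.0372). Slc3a2 (4F2hc), the heavy chain that carries it to the membrane, went from 1104 to 763 and from 893 to 719, with 908 and 885 in the IL3 pair (-0.42 ± 0.10 SE, limma adjusted p = 0.0348). In each case treated and untreated fusion signals did not overlap, but neither gene passed in a fit of the 4 fusion arrays alone or with a floor at the 40th percentile.

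Several of these genes are also known targets of ATF4, the factor of the amino acid response. Of 10 listed transporters of that response, 9 were on the array and 6 were tested. In limma 3 fell (Slc1a5, Slc3a2 and Slc7a5), 0 rose and 3 did not pass, beside 12.4% of all genes that fell and 13.5% that rose. At an unadjusted p under 0.05 in limma, 4 were lower and 0 higher, beside 19.1% and 23.5% of all genes. The list's median log2 ratios were -0.39 and -0.33, against -0.02 in the IL3 pair. Slc38a2, a neutral amino acid importer, was at 479 and 543 in ETV6-PDGFRB cells, 577 and 622 in FIP1L1-PDGFRA cells and 487 and 488 in the IL3 pair (0.15 ± 0.09 SE, limma adjusted p = 0.251). Slc1a4 (ASCT1) had a limma change of -0.43 ± 0.13 (SE, adjusted p = 0.0613), and Slc6a9, a glycine importer, one of 0.09 ± 0.17 (SE, adjusted p = 0.722). The cationic amino acid importers Slc7a1 and Slc7a3 and the cystine-glutamate exchanger Slc7a11 were below the floor on every array.

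Slc6a12, a betaine and GABA importer, was the amino acid family gene that rose. Its signal went from 37.5 to 61.8 and from 44.8 to 97.9, with 58.0 and 49.9 in the IL3 pair. Both untreated fusion arrays were below, and both treated ones above, the IL3 arrays (0.92 ± 0.14 SE, limma adjusted p = 0.0137). Slc6a13, a related GABA carrier next to Slc6a12 in the RefSeq gene order, went from 277 to 311 and from 302 to 442, with 350 and 367 in the IL3 pair. It did not pass (0.36 ± 0.12 SE, limma adjusted p = 0.0854), and passed with an intensity trend and robust prior (adjusted p = 0.0285).

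Zinc importers of family SLC39 held 10 tested genes. Of these 3 fell, 0 rose and 7 were not called, beside 12.4% of all genes that fell and 13.5% that rose. Slc39a14 (ZIP14), which imports zinc, iron and manganese, went from 49.4 to 30.1 and from 59.5 to 26.5, with 81.4 and 76.6 in the IL3 pair (-0.94 ± 0.13 SE, limma adjusted p = 0.0116). The fusion lines were below the IL3 pair before treatment and lower still after it. Slc39a7 (ZIP7), which releases zinc from the endoplasmic reticulum, went from 162 to 106 and from 162 to 94.9, with 193 and 161 in the IL3 pair (-0.69 ± 0.12 SE, limma adjusted p = 0.0185). Slc39a6 (ZIP6), a plasma membrane zinc importer, went from 142 to 95.5 and from 146 to 95.9, and was 158 on both IL3 arrays (-0.59 ± 0.08 SE, limma adjusted p = 0.0116). Slc39a14 moved more in FIP1L1-PDGFRA cells, and all 3 genes passed in the 8 alternative fits. Of the 6 tested zinc exporters of family SLC30, limma called 0 in either direction, and at an unadjusted p under 0.05 there were 3 lower and 0 higher, beside 19.1% and 23.5% of all genes. Over all 20 tested metal ion carriers, 3 fell and 0 rose, beside 12.4% and 13.5% of all genes. At an unadjusted p under 0.05 in limma, 7 were lower and 0 higher, beside 19.1% and 23.5% of all genes. The median log2 ratios of the group were -0.20 over 19 genes in ETV6-PDGFRB cells and -0.30 over 21 in FIP1L1-PDGFRA cells.

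Mitochondrial carriers changed in both directions, where 2 of 28 tested rose and 3 fell (beside 13.5% and 12.4% of all genes) and 23 were not called. Their median log2 ratio was -0.11 over 28 genes for ETV6-PDGFRB and 0.09 over 27 for FIP1L1-PDGFRA. The first takes in Slc25a47, a bound of -0.24 with no ratio in FIP1L1-PDGFRA cells, so the medians are over unlike sets. Scaling to the hybridization controls turned the FIP1L1-PDGFRA median to -0.19. Slc25a22, a glutamate carrier, went from 38.1 to below the floor and from 38.9 to 28.7, with 31.8 and 38.1 in the IL3 pair. It was at least 1.90-fold lower in the first line and lower by a log2 ratio of -0.44 in the second, and the fitted limma change, which is no bound, was -0.68 (adjusted p = 0.0357, with no SE since 1 array was at the floor). Slc25a33, which carries pyrimidine nucleotides, went from 183 to 116 and from 147 to 114, with 152 and 150 in the IL3 pair (-0.52 ± 0.11 SE, limma adjusted p = 0.0263). Treated and untreated fusion signals did not overlap for either gene, and both calls were lost at the 40th percentile floor and in the fit of the 4 fusion arrays alone.

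Slc25a11, the oxoglutarate-malate carrier of the malate-aspartate shuttle, rose from 514 to 634 and from 348 to 456, with 407 and 403 in the IL3 pair (0.35 ± 0.09 SE, limma adjusted p = 0.042). Slc25a45, a less studied carrier, rose from 123 to 151 and from 76.8 to 120, with 92.5 and 93.1 in the IL3 pair (0.47 ± 0.11 SE, limma adjusted p = 0.0378). For both genes the lines differed before treatment, so treated and untreated fusion signals overlapped and the rise was within each line. Both calls were lost under scaling to the hybridization controls, at the 40th percentile floor and in the fit of the 4 fusion arrays alone. Slc25a5 (0.04 ± 0.09 SE, limma adjusted p = 0.746), Slc25a3 (0.09 ± 0.09 SE, adjusted p = 0.513) and Slc25a4 (0.14 ± 0.10 SE, adjusted p = 0.359), which exchange ADP, ATP and phosphate for respiration, did not pass.

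Vitamin carriers of family SLC19 were the 2 tested genes of the nucleoside and folate group, and both fell, beside 12.4% of all genes. Slc19a1, the reduced folate carrier, went from 131 to 101 and from 142 to 88.4, with 155 and 149 in the IL3 pair (-0.53 ± 0.11 SE, limma adjusted p = 0.0254). Its second probe set went from 70.3 to 29.4 and from 84.7 to 30.5, with 85.0 and 111 in the IL3 pair. That is a mean log2 ratio of -1.36 over the fusion lines, which was not tested. The remaining probe set of Slc19a1 was below the floor on every array. Slc19a2, a thiamine carrier, went from 117 to 75.4 and from 155 to 114, with 202 and 173 in the IL3 pair (-0.53 ± 0.12 SE, limma adjusted p = 0.0308). All 4 fusion arrays were below the IL3 arrays for Slc19a2, the treated ones the most. Both calls were lost with the mean of probe sets and with the 4 fusion arrays alone, and that of Slc19a2 also at the 40th percentile floor.

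Among 16 tested nucleotide sugar carriers, which bring activated sugars into the endoplasmic reticulum and Golgi, limma called 2 that fell and 0 that rose. The shares of all genes were 12.4% and 13.5%. At an unadjusted p under 0.05 in limma, 5 were lower and 1 higher, beside 19.1% and 23.5% of all genes. Slc35d1, which carries UDP-glucuronic acid and UDP-N-acetylgalactosamine, went from 49.2 to 24.9 and from 56.0 to 34.8, with 56.1 and 54.3 in the IL3 pair (-0.83 ± 0.11 SE, limma adjusted p = 0.0095). The treated fusion arrays were the lowest of the 6. Slc35e4, whose substrate is not known, went from 61.6 to 39.3 and from 47.3 to 31.1, with 48.5 and 44.8 in the IL3 pair (-0.63 ± 0.09 SE, limma adjusted p = 0.0125). Its other probe set had a mean log2 ratio of -0.02 over the fusion lines. The call of Slc35e4 was lost with the mean of probe sets and at the 60th percentile floor. The medians of the group, over 16 and 17 genes with a ratio, were -0.16 and -0.02.

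In the sugar and monocarboxylate group, 7 genes were tested. Of these 1 fell and 1 rose (beside 12.4% and 13.5% of all genes), and 5 did not pass. Slc37a3, of the sugar-phosphate exchanger family, went from 63.4 to 35.8 and from 42.3 to 21.4, with 59.5 and 53.9 in the IL3 pair (-0.90 ± 0.10 SE, limma adjusted p = 0.00761), a call lost at the 60th percentile floor only. Slc2a8 (GLUT8), a glucose carrier of internal membranes, rose from 55.7 to 115 and from 50.4 to 67.6, with 58.0 and 51.2 in the IL3 pair (0.74 ± 0.17 SE, limma adjusted p = 0.0357). The treated ETV6-PDGFRB array stood far above the other 5 for Slc2a8, and the call was lost in the fit of the 4 fusion arrays alone, at the 40th percentile floor and under scaling to the hybridization controls. For the carriers left out of the set, limma changes were -0.87 ± 0.13 (SE, adjusted p = 0.0123) for Slc2a1, -1.22 ± 0.08 (SE, adjusted p = 0.00355) for Slc2a3 and -0.85 ± 0.09 (SE, adjusted p = 0.00695) for Slc16a1, so that these fell where Slc2a8 rose, and Slc16a3 was below the floor.

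Of 10 tested genes of the proton, bicarbonate, chloride and sodium group, 2 rose and 1 fell, beside 13.5% and 12.4% of all genes. Slc9a3r1 (NHERF1), the scaffold protein, rose from 382 to 723 and from 368 to 568, with 415 and 406 in the IL3 pair (0.77 ± 0.11 SE, limma adjusted p = 0.0108). Slc4a2 (AE2), a chloride-bicarbonate exchanger, rose from 57.8 to 84.0 and from 47.0 to 75.5, with 51.8 and 45.3 in the IL3 pair (0.61 ± 0.11 SE, limma adjusted p = 0.0185). Treated arrays lay above all untreated and IL3 arrays for both genes. Slc9b1, of the sodium-proton antiporter family, went from 115 to 80.6 and from 149 to 75.9, with 142 and 133 in the IL3 pair (-0.74 ± 0.13 SE, limma adjusted p = 0.0197), a call lost with the mean of probe sets and with the 4 fusion arrays alone. That mean takes in a probe set that was below the floor on every array.

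In the organic ion, lipid and choline group 4 of 9 tested genes rose and 1 fell, beside 13.5% and 12.4% of all genes. Its median log2 ratio was 0.01 over 11 genes with ETV6-PDGFRB, and with FIP1L1-PDGFRA it was 0.48 over 9. Slc15a3 (-0.35) and Slc27a1 (0.01), each above the floor on 1 array, had a ratio with ETV6-PDGFRB only, as bounds. The medians are therefore over unlike sets of genes, and their gap is not a difference between the lines on the same genes. All 3 tested members of family SLC22 rose. Slc22a23, a carrier with no settled substrate, went from 62.1 to 98.1 and from 42.4 to 87.6, with 68.5 and 75.3 in the IL3 pair (0.85 ± 0.13 SE, limma adjusted p = 0.0131). Slc22a5 (OCTN2), the carnitine importer, went from 36.5 to 47.2 and from 25.7 to 41.4, with 39.7 and 33.7 in the IL3 pair (0.53 ± 0.13 SE, limma adjusted p = 0.0416). Slc22a17, a receptor for lipocalin-2, went from 146 to 182 and from 128 to 179, with 143 and 140 in the IL3 pair (0.40 ± 0.09 SE, limma adjusted p = 0.0334). Treated and untreated fusion signals did not overlap for these genes, and Slc22a5 and Slc22a17 no longer passed under scaling to the hybridization controls, at the 40th percentile floor or with the 4 fusion arrays alone. The call of Slc22a5 was also lost with the mean of probe sets. Slc10a3, of the bile acid carrier family but with no known substrate, fell from 158 to 101 and from 138 to 83.8, with 153 and 155 in the IL3 pair (-0.68 ± 0.09 SE, limma adjusted p = 0.0087).

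Slc48a1 (HRG1), which exports heme from the lysosome to the cytosol, had the largest rise. Its signal went from 186 to 320 and from 170 to 378, with 257 and 281 in the IL3 pair (0.97 ± 0.12 SE, limma adjusted p = 0.00942). Untreated fusion cells were below the IL3 pair and treated ones above it. A second probe set gave the same order, from 139 to 290 and from 108 to 286 with 170 and 181 in the IL3 pair. Its mean log2 ratio over the fusion lines was 1.24.

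**Figure D2:**
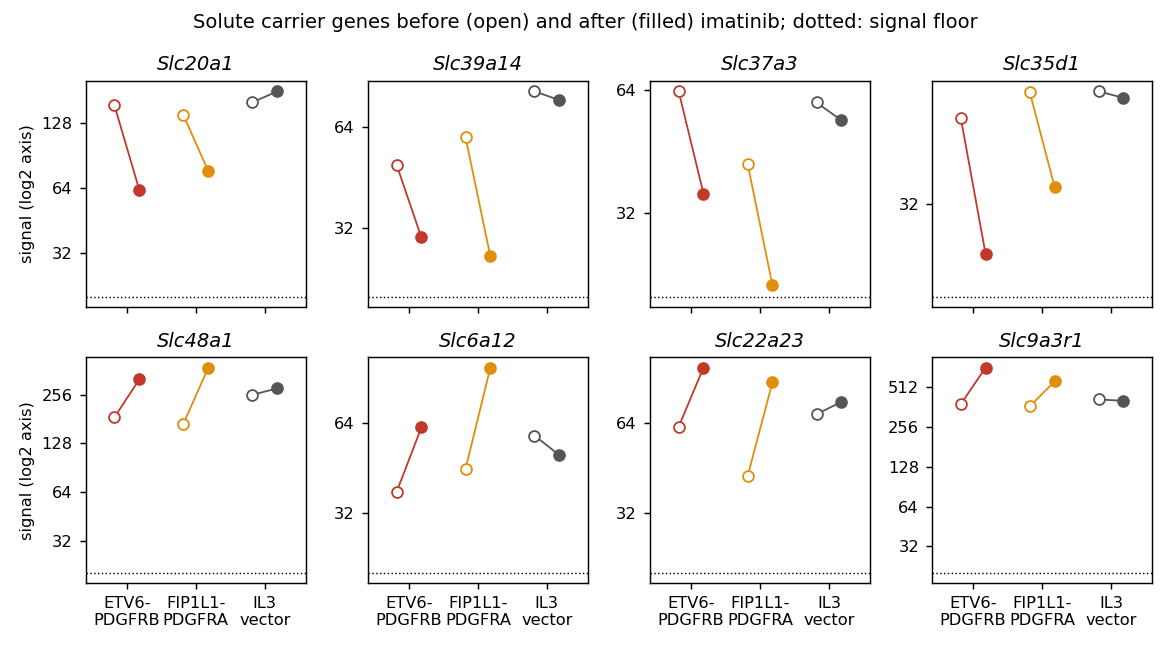
Signal on each of the 6 arrays (log2 axis) for 4 solute carrier genes that fell (top) and 4 that rose (bottom), with open circles for untreated and filled circles for imatinib arrays, lines joining the arrays of a cell line and a dotted line at the floor of 20.1. Slc20a1 went from 154 to 62.7 and from 139 to 76.6 in the fusion lines and Slc48a1 from 186 to 320 and from 170 to 378, with IL3 arrays nearly level.

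Slc48a1 belongs to a list of 12 erythroid and heme transporters, all on the array, of which 7 were tested. Of these 2 rose and 1 fell (beside 13.5% and 12.4% of all genes), and 4 did not pass. The list's median log2 ratios for ETV6-PDGFRB and FIP1L1-PDGFRA were -0.18 and 0.23. Slc14a1, a urea carrier of red cells, went from 34.3 to 45.2 and from below the floor to 31.0, with 71.0 and 65.0 in the IL3 pair (0.51, limma adjusted p = 0.0264, with no SE). All 4 fusion arrays were below the IL3 arrays for Slc14a1, treated and untreated signals overlapped, and the call was lost under 5 of 8 alternatives. Slc25a37 (mitoferrin 1), which brings iron into mitochondria for heme, fell from 58.5 to 34.6 and from 46.9 to 36.0, with 61.7 and 53.4 in the IL3 pair (-0.57 ± 0.13 SE, limma adjusted p = 0.0369), a call lost at the 40th and 60th percentile floors and with the 4 fusion arrays alone.

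The other tested genes of the list were Slc25a39 (0.14 ± 0.09 SE, limma adjusted p = 0.326), the mitochondrial glycine carrier Slc25a38 (-0.20 ± 0.09 SE, adjusted p = 0.156), the iron importer Slc11a2 (-0.05 ± 0.15 SE, adjusted p = 0.821) and Slc6a9. The red cell anion exchanger Slc4a1, the iron exporter Slc40a1, the folate and heme carrier Slc46a1, Slc22a4 and Slc29a1 were below the floor on every array. Erythroid markers moved with the drug: the summed signal of 4 markers on the array, of 6 listed, went from 735 to 1590 and from 462 to 1499 and was 566 and 541 in the IL3 pair. Klf1 and Gata1, 2 transcription factors, carried that sum, while the defining genes Hba-a1 and Alas2 were below the floor on every array. The summed signal of 7 mast cell and basophil markers, 4 of them above the floor on some array, went from 1487 to 1944 and from 488 to 849, with 936 and 771 in the IL3 pair, while Tpsab1, Fcer1a and Ms4a2 were below the floor throughout. The part of these markers in the change of these transporters was not tested.

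**Figure D3:**
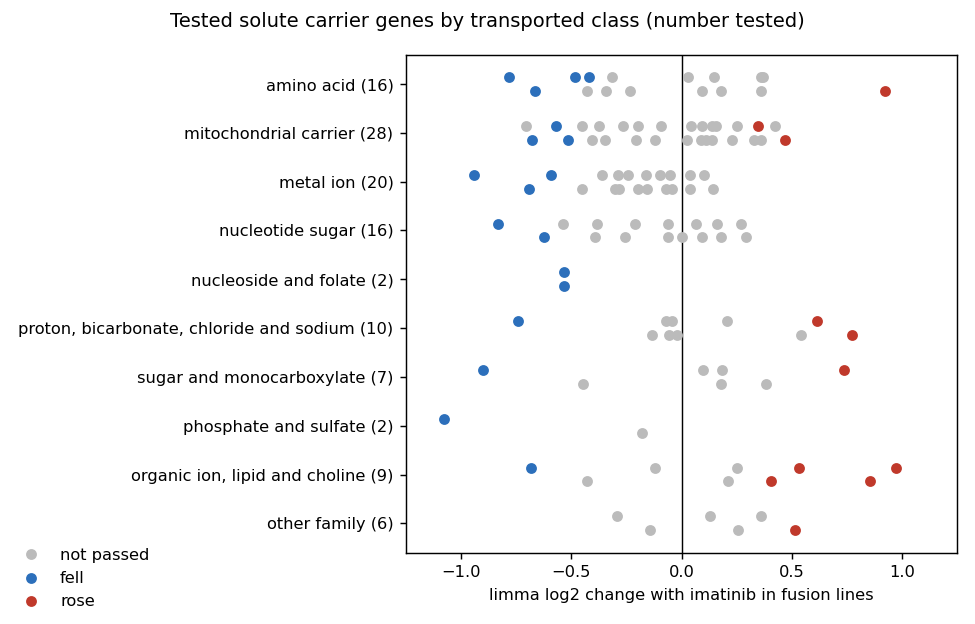
Limma log2 change with imatinib in the fusion lines on the horizontal axis for the 116 tested solute carrier genes, by transported class with the number tested in brackets (blue fell, red rose, grey did not pass; points are shifted vertically for legibility). Metal ion carriers show 3 genes that fell and 0 that rose, and the organic ion, lipid and choline class 4 that rose and 1 that fell. Of all tested genes, 12.4% fell and 13.5% rose.

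Within a single line few solute carrier genes passed 2-fold, and no test is possible there with 1 array a group. In ETV6-PDGFRB cells, 1 of 118 was at least 2-fold higher (Slc2a8, 2.07-fold; 0.847% beside 1.61% of all genes) and 1 at least 2-fold lower (Slc20a1, 2.46-fold; 0.847% beside 2.86%). In FIP1L1-PDGFRA cells, 3 of 118 were higher (Slc48a1 2.23-fold, Slc6a12 2.19-fold and Slc22a23 2.07-fold; 2.54% beside 2.19%) and 1 was lower (Slc39a14, 2.25-fold; 0.847% beside 2.97%). Both lines together shared 0 of 112 members past 2-fold in either direction, beside 0.753% of all genes higher and 1.9% lower. With scaling to the hybridization controls, 7 members were lower past 2-fold in each line (6.19% and 5.69%, beside 4.58% and 6.07% of all genes), 3 of them in both (2.73% beside 3.15%), and 0 were higher. In the IL3 pair, 0 of 120 members passed 2-fold in either direction, beside 0.0749% of all genes higher and 0.0599% lower. The SD of the members' log2 ratios was 0.46, 0.43 and 0.24 in the ETV6-PDGFRB, FIP1L1-PDGFRA and IL3 pairs, beside 0.50, 0.51 and 0.20 for all genes.

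Of 112 members with a ratio in both fusion lines, 81 (72.3%) moved the same way, beside 76.4% of 6640 genes. Across these genes the ratios of the lines correlated at r = 0.69 for members and 0.77 for all genes, as a description, since genes are not independent replicates. The response differed by over 2-fold between the lines for 2 of 112 members (1.79%), beside 1.42% of all genes. Slc25a14, a mitochondrial carrier of the uncoupling protein group, was lower with imatinib in ETV6-PDGFRB cells (44.4 and 22.7) and higher in FIP1L1-PDGFRA cells (33.0 and 39.9), with 29.2 and 39.2 in the IL3 pair. Slc39a13 (ZIP13), a zinc carrier, moved the other way, from below the floor to 27.1 in the former and from 30.1 to 20.2 in the latter. Each of these values is 1 array with no repeat. Smaller gaps between the lines were those of Slc35c2 (log2 ratios of -0.93, as a bound, and -0.15), Slc25a23 (-0.23 and 0.54) and Slc66a1 (0.63 and -0.13).

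**Figure D4:**
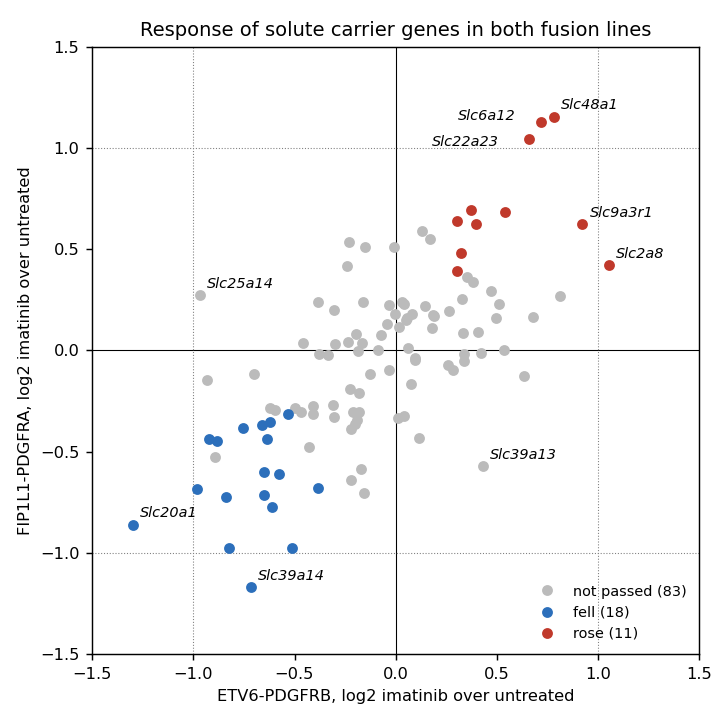
Log2 ratio (imatinib over untreated) in ETV6-PDGFRB cells (horizontal) against FIP1L1-PDGFRA cells (vertical) for the 112 solute carrier genes with both ratios, with dotted lines at 2-fold. The genes that rose (11) and fell (18) lie in the upper right and lower left by construction of the test, and Slc25a14 and Slc39a13 are the members whose lines differ by over 2-fold.

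The response of the fusion lines was also compared with that of the IL3 pair itself, in a limma fit with 1 residual degree of freedom. Of 116 members 0 passed, as did 0 of all 6808 genes (0.0%), at a lowest adjusted p of 0.182 among members and 0.114 among all genes. At an unadjusted p under 0.05 in that fit there were 28 of 116 members and 1179 of 6808 genes. For no member is a difference between the fusion and IL3 responses established by this test.

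Before treatment, few solute carrier genes of the fusion lines were over 2-fold from those of IL3-grown cells. Of 120 members 0 were at least 2-fold higher in untreated ETV6-PDGFRB than in untreated vector cells and 0 in FIP1L1-PDGFRA cells, beside 2.24% and 1.82% of all genes. Slc14a1 was at least 2-fold lower in both lines (0.833% of members, beside 0.736% and 0.327% of all genes), at 2.07-fold lower in ETV6-PDGFRB and at least 3.53-fold lower in FIP1L1-PDGFRA cells. Both comparisons use the same untreated vector array, and they have no replicate check.

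Slc48a1 (log2 ratios of -0.46 and -0.60), Slc39a14 (-0.72 and -0.45), Slc19a2 (-0.78 and -0.38) and Slc35c2 (-0.40 and -0.59) followed, with genes ranked by the smaller of their differences in the fusion lines. The nucleoside carrier Slc29a2 was above the floor in untreated vector cells only, at 26.5. On the higher side, by the same ranking, the zinc importer Slc39a3 was at 37.5 and 39.4 against below the floor, Slc41a3, of a magnesium carrier family, at 44.0 and 32.6 against 25.4, and Slc7a7, a cationic amino acid exchanger chain, at 84.9 and 94.4 against 63.9. The sulfate carrier Slc26a2 (44.4 and 39.9 against 31.2), the vitamin C importer Slc23a2 (56.1 and 58.5 against 44.5) and the zinc exporter Slc30a3 (44.7 and 34.3 against 27.4) followed. The Slc39a3 signal on the treated vector array was 39.8, so the low untreated value rests on 1 array.

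Other transport genes on the array were set beside the solute carriers. Of 18 tested genes of the ABC family, 4 rose and 2 fell (beside 13.5% and 12.4% of all genes), and 12 did not pass. The family also holds proteins without membrane domains (Abce1, Abcf1, Abcf2 and Abcf3), and the genes that fell, Abce1 and Abcf2, are of that kind. Abcb10, a mitochondrial transporter needed in red cell development, rose from 110 to 178 and from 88.6 to 271, with 113 and 128 in the IL3 pair (1.15 ± 0.23 SE, limma adjusted p = 0.0242). Abca1, the cholesterol exporter, rose by 0.77 ± 0.12 (SE, limma adjusted p = 0.0152) on the log2 scale, and Abce1, a ribosome recycling factor, fell by 0.71 (-0.71 ± 0.10 SE, limma adjusted p = 0.0129). Of 13 tested genes of the vacuolar proton pump, 1 rose (Atp6v0d1, 0.32 ± 0.08 SE, limma adjusted p = 0.0491), beside 13.5% of all genes. Of the partner and regulator genes of transporters, 3 were tested and 0 passed in limma (1 higher at an unadjusted p under 0.05, beside 23.5% of all genes), among them Bsg, the chaperone of monocarboxylate carriers (0.09 ± 0.13 SE, limma adjusted p = 0.632), and Txnip, which limits glucose carriers at the membrane (0.44 ± 0.14 SE, limma adjusted p = 0.0789).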

How the data were processed

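RNA of 6 samples of 3 Ba/F3 lines was measured on 1 Affymetrix array each. The deposited values were linear intensity signals per probe set, for which the submitters' processing notes name GCOS 1.4.0 and MAS5. The mean signal trimmed by 2% at each end was 100.0 on every array, so signals are relative to the whole array. A change in total RNA would not be visible.

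Of 22690 probe sets, 20380 had 1 gene symbol in the platform annotation, 691 several and 1555 none, and 64 were controls. RefSeq changed 0 symbols. Signals under the floor (20.1) were set to it. A ratio was formed where at least 1 array was above the floor, and is a bound where only 1 was. With 1 array a group, 2-fold counts have no test. limma 3.58.1 (R 4.3.3) was fitted to the 6808 genes with 2 or more arrays above the floor, with 2 residual and 3.10 prior degrees of freedom and Benjamini-Hochberg adjustment. Values at the floor add no spread, so no SE is given where a fusion array was at it. The script was tested on simulated data.

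The members and lists were chosen with earlier results of these data known. Genes named were the 15 largest limma changes in each direction, any member past 2-fold in both fusion lines or in the IL3 pair, the 10 highest mean signals, the 5 largest differences between lines, the 6 largest differences of untreated lines each way, and the lists. The remaining called genes and those past 2-fold in 1 line were added after their values were seen. The transporter genes beside them (Abcb10, Abca1, Abce1 and Atp6v0d1) were also picked after that. Python 3.11.15 with numpy 2.4.6, pandas 2.3.3 and matplotlib 3.10.9 was used. Alternatives were other floors, a pseudocount of 16, other scalings, the mean of probe sets and other limma fits.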

Additional observations from a re-analysis of the deposited data

Results flagged for a closer look

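In 12 cases, over 10 members, a pair of lines moved in opposite directions by responses over 2-fold apart, given here on the log2 scale. Each is a difference of single arrays and was not tested. Between the fusion lines (ETV6-PDGFRB minus FIP1L1-PDGFRA), the differences were -1.24 for Slc25a14 and at least 1.004 for Slc39a13. Between ETV6-PDGFRB and IL3 cells they were -1.47 for Slc20a1, -1.39 for Slc25a14 and 1.23 for Slc2a8, and, with an array at the floor, -1.19 or lower for Slc25a22, -1.04 or lower for Slc25a25 and -1.40 or lower for Slc35c2. Between FIP1L1-PDGFRA and IL3 cells they were -1.03 for Slc20a1, -1.05 for Slc33a1, the acetyl-CoA carrier, 1.35 for Slc6a12 and -1.04 or lower for Slc39a3. Slc20a1 is the member that stood apart from the IL3 pair in this way in both fusion lines, and its IL3 signals went from 159 to 179. Slc33a1 went from 104 to 63.6 in FIP1L1-PDGFRA cells and from 96.2 to 122 in the IL3 pair, and did not pass limma over both fusion lines (-0.43 ± 0.18 SE, adjusted p = 0.139).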

How the results depend on the processing

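Of the 29 called members, 11 passed in all 8 alternative limma fits and 0 changed sign. They were Slc10a3, Slc1a5, Slc35d1, Slc39a14, Slc39a6 and Slc39a7 among those that fell and Slc22a23, Slc48a1, Slc4a2, Slc6a12 and Slc9a3r1 among those that rose. Genes that rose numbered 11, against 5 with a floor at the 40th percentile, 5 with scaling to the hybridization controls and 5 with the 4 fusion arrays only (3.23%, 4.27% and 4.31% of members, beside 7.17%, 5.68% and 6.14% of all genes). Genes that fell numbered 18, against 41 with that scaling and 10 with the 4 fusion arrays only, a fit with fewer arrays (35.0% and 8.62% of members, beside 27.6% and 6.92% of all genes). The other causes were not tested.

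Counts past 2-fold were small and moved as follows. Under the 40th percentile floor, higher and lower members numbered 2 and 6 for ETV6-PDGFRB (1.27% and 3.82%, beside 2.01% and 3.03% of all genes). In FIP1L1-PDGFRA cells 3 were lower (2.0% beside 3.02%), and the IL3 pair had 1 and 1 (0.658% each, beside 0.371% and 0.235%). Untreated ETV6-PDGFRB against vector cells had 1 and 5 (0.645% and 3.23%, beside 2.65% and 1.18%), and 1 was higher in untreated FIP1L1-PDGFRA cells (0.662% beside 1.98%). Under the 60th percentile floor, 0 were lower in FIP1L1-PDGFRA cells (beside 2.68% of all genes) and in untreated ETV6-PDGFRB and FIP1L1-PDGFRA cells (beside 0.536% and 0.193%). A pseudocount of 16 gave 0 and 3 for ETV6-PDGFRB (0.0% and 1.16%, beside 0.379% and 1.15% of all genes). It gave 1 and 0 for FIP1L1-PDGFRA (0.388% and 0.0%, beside 0.581% and 1.23%) and 1 and 0 for untreated ETV6-PDGFRB (0.388% and 0.0%, beside 1.1% and 0.282%). The hybridization control scaling gave 0 and 7 in each fusion line (lower in 6.19% and 5.69%, beside 4.58% and 6.07% of all genes), 3 lower in both (2.73% beside 3.15%) and 2 higher in untreated FIP1L1-PDGFRA cells (1.63% beside 2.43%). The mean of probe sets gave 0 lower in each fusion line (beside 3.04% and 3.05% of all genes) and 1 lower in the IL3 pair (0.909% beside 0.225%). Signals near the floor limit what can be read for Slc25a22, Slc14a1, Slc39a13 and Slc35c2.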

Other observations

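Slc15a3, a peptide and histidine carrier of the lysosome, was above the floor on the untreated ETV6-PDGFRB array only, at 25.6, and was not tested. With a floor at the 40th percentile (9.485) it passed as lower (fitted change -1.07, limma adjusted p = 0.0366, with no SE). Both treated fusion arrays and both IL3 arrays were at that floor and add no spread, which limits that p-value. It was chosen after its values were seen.

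Slc25a29, a mitochondrial carrier of basic amino acids, went from 46.7 to 25.2 and, in FIP1L1-PDGFRA cells, from 28.9 to below the floor, with 36.5 and 26.2 in the IL3 pair (-0.71, limma adjusted p = 0.0504, with no SE). Its adjusted p lay just outside the threshold. The log2 ratios were -0.89 and, as a bound, -0.52 in the fusion lines, and the IL3 pair was also lower, at -0.48. Another probe set of the gene went the other way, from 33.3 to 36.9 and from 20.9 to 23.0, with 29.1 and 27.5 in the IL3 pair. The remaining probe sets were below the floor on every array. Slc25a29 was also chosen after its values were seen.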
